A study of Mus musculus with 30 samples.

Results

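The data compared are embryoid bodies of the Pali wild type line of mouse embryonic stem cells at day 8 and at day 4, 2 libraries at each day and 4 of the 30 libraries of the series. The 4 libraries were chosen by their labels alone, and all genes of the deposited table were compared, 20563 in all. Both groups are wild type and were set to differentiate by taking leukaemia inhibitory factor (LIF) out of the medium and growing the cells on non-adherent plates; the labels give them different times in culture and name no other difference. Day 0 cells of the same line, kept with LIF on gelatin, and embryoid bodies of C129 wild type, the other wild type line of the series, at the same days are used beside them. Pali wild type is the control line of mutants of the Lcor and Lcorl loci, which encode the PALI partners of Polycomb repressive complex 2. Each group is an aggregate of many cell types from 1 line, so that fewer cells of a type and less RNA per cell cannot be told apart. The labels call the libraries biological duplicates and do not say whether each pair came from separate cultures or clones. The p-values below therefore rest on the spread between libraries, part of which may be technical.

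Embryonic stem cells are held in the pluripotent state by a network of transcription factors, among them Pou5f1 (Oct4), Sox2 and Nanog, and LIF supports the naive form of that state. In embryoid bodies the network is normally turned down in steps: naive genes go first, an epiblast-like state with Fgf5 and Otx2 follows, and derivatives of ectoderm, mesoderm and endoderm appear later. Where signals for the posterior body are scarce the ectoderm takes an anterior neural form, marked by forebrain factors such as Six3 and Emx2. An outer layer of visceral endoderm, the tissue that feeds the early embryo and secretes Afp and apolipoproteins, is also common on embryoid bodies.

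Values are the authors' normalised counts, and differences are day 8 minus day 4 of log2(value + 4), which understates the change of low genes. Of the 20563 genes, 15712 reached a value of 10 in at least 2 libraries and were tested with limma. At an adjusted p of 0.05, 307 genes (1.95% of those tested) were higher at day 8 and 134 (0.853%) were lower, 441 (2.81%) in all. The counts rest on the libraries used: they were 51 and 16 without day 8 replicate 1, 20 and 6 with the 12 wild type libraries alone, and 0 and 0 with the 4 libraries alone, where 1801 genes had an unadjusted p under 0.05. The rises were larger than the falls: 243 genes rose and 46 fell at least 2-fold, and 143 rose and 8 fell at least 4-fold. The day 8 duplicates correlated at 0.949 and the day 4 duplicates at 0.956 (Pearson, across genes, which are not independent replicates), and pairs across the days at 0.938 to 0.949. The same step called 4835 genes (30.8%) in C129 wild type, 2275 (14.5%) in the Pali1 knockout, 1249 (7.95%) in the Pali1/2 double knockout and 1257 (8%) in the Aebp2 gene trap, and day 4 against day 0 called 4296 (27.3%) in Pali wild type itself. How far these counts differ from each other was not tested as counts; the step of Pali wild type against that of C129 wild type was tested gene by gene and is given further on. The estimated depth of the 4 libraries, read from the steps between low values, was 14629540 to 18102795 reads.

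Of the 12 largest rises, 11 are described here. The 12 were taken from called genes that averaged 50 or more at day 8, had no value of 0 and did not overlap between the days. Emx2, Fezf2 and Pou3f3 encode transcription factors of the embryonic forebrain, Zic1 a zinc finger factor of the dorsal neural tube, and Wnt8b a Wnt ligand of the forebrain midline. Zic1 had 618 and 174 normalised counts at day 8, against 13.6 and 7.68 at day 4. Rmst, a long non-coding RNA of neural tissue (chromosome 10, 92071037 to 92165170, minus strand, GRCm38), had 421 and 123 normalised counts at day 8, against 1.81 and 1.10 at day 4. The difference of Rmst was 5.42 ± 0.63 (log2, SE; adjusted p = 0.000397, limma), the largest of the 12. Rmst was near the bottom of the scale at day 0 too, with 1.10 and 2.14.

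Replicate 1 of day 8 carried more of these RNAs than replicate 2. That the days did not overlap was a condition of the choice of genes. Wnt8b showed the widest gap of the 11, with 821 and 60.0 at day 8, against 4.53 and 6.59 at day 4 (difference 4.60 ± 0.74, adjusted p = 0.00309, limma). Pou3f3 had 323 and 114 at day 8, against 7.25 and 3.29 at day 4, with a difference of 4.44 ± 0.51 (adjusted p = 0.000397). Emx2, a homeobox gene of the dorsal telencephalon, had 377 and 108 at day 8, against 5.44 and 8.78 at day 4, and Fezf2 had 340.1 and 92.2, against 6.34 and 6.59. Six3os1, a non-coding RNA transcribed next to Six3, was the most even of the group, with 390.2 and 320.3 at day 8, against 13.3 and 23.0 at day 4. The labels do not say whether strand was used in counting, so reads of Six3os1 and of overlapping transcripts of the other strand may not be separable.

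The other members of the 11 encode secreted or surface proteins. Scube1, a secreted glycoprotein with EGF repeats, had 1388 and 625 at day 8, against 47.3 and 29.3 at day 4. Megf10, an engulfment receptor, had 538 and 268 at day 8, against 16.3 and 19.8 at day 4, and Unc5c, a receptor of the guidance cue netrin, had 263 and 155, against 15.4 and 7.70. Rspo3, a secreted amplifier of Wnt signalling, had 708 and 94.5 at day 8, against 9.06 and 16.5 at day 4. All 11 genes were higher in replicate 1 than in replicate 2 at day 8. With that replicate 1 left out, 5 of the 11 stayed called, with adjusted p up to 0.176; without replicate 2, 11 stayed called; without replicate 1 or replicate 2 of day 4, 10 did each time.

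**Figure D1:**
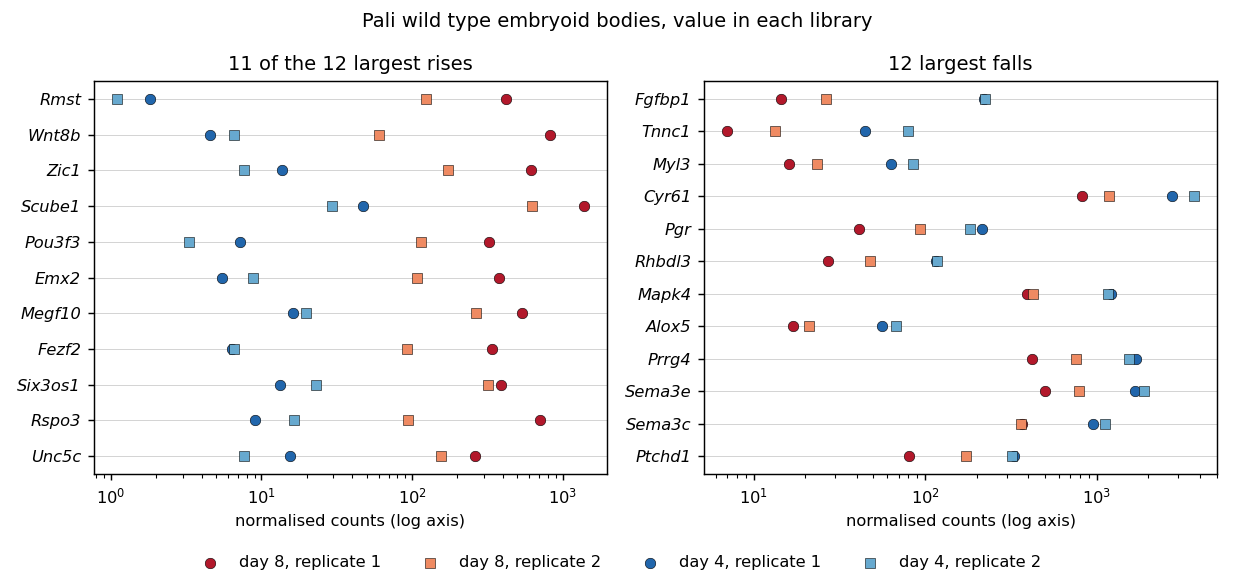
Normalised counts (log axis) of 11 of the 12 largest rises and of the 12 largest falls in each of the 4 Pali wild type libraries; red and orange points are day 8 and blue points are day 4. The day 8 points lie above the day 4 points for every rise shown and below them for every fall, which the choice of genes required. For the rises the day 8 duplicates lie apart, for Wnt8b at 821 and 60.0.

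Of 32 tested genes on a list of neuroectoderm and neural progenitor markers, 11 rose and 0 fell, where 1.95% of all tested genes rose; the list's median difference was 1.25, against 0 over all tested genes. Beside Zic1 and Emx2, the 11 included Vim, Wnt1, Pax3, Fabp7, Sox9, Lhx5, Six3 and Sox21. Vim, the intermediate filament of progenitor and mesenchymal cells, had 5408 and 3170.3 at day 8, against 543 and 865 at day 4 (difference 2.59 ± 0.37, adjusted p = 0.00154, limma). At day 0 Vim had 2341 and 4521, which overlapped day 8, while Zic1 had 11.0 and 11.8 and Emx2 had 0 and 6.41. Sox9, a factor of neural progenitors and cartilage, had 327 and 118 at day 8, against 24.5 and 12.1 at day 4. Fabp7, the fatty acid binding protein of radial glia, had 124 and 46.7, against 4.53 and 12.1. Six3, an eye and forebrain factor, had 28.1 and 31.1, against 5.44 and 3.29.

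Of members of the list that were not called, Sox1, the earliest marker of neural plate, had 1315 and 1023 at day 8, against 866 and 1314 at day 4, with overlapping days (difference 0.12 ± 0.73, adjusted p = 0.986, limma). Pax6, a factor of eye, forebrain and spinal cord, had 637 and 626 at day 8, against 394 and 632 at day 4 (0.34 ± 0.58, adjusted p = 0.865). Nes, the filament nestin of neural progenitors, had 2156 and 1842 at day 8, against 3184 and 3530.3 at day 4 (-0.75 ± 0.23, adjusted p = 0.095). The list had 2 members called higher without day 8 replicate 1, while without day 8 replicate 2 it had 11, without day 4 replicate 1 it had 6, and without day 4 replicate 2 it had 7. Its summed level was 18916 and 13788 at day 8, against 9977 and 11330 at day 4, and 21 of the 32 members were higher in replicate 1 at day 8. Zic4 was listed at 0 in all 4 libraries.

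Of 24 tested neuron genes 3 rose and 0 fell, where 1.95% of all tested genes rose. Among the 3 were Neurog2 and Neurog1, proneural factors that start neuron formation. Neurog2 had 49.2 and 7.78 at day 8, against 0.906 and 0 at day 4 (difference 2.50 ± 0.50, adjusted p = 0.0119, limma), and Neurog1 had 22.1 and 8.89, against 0.906 and 2.20. Both were higher in replicate 1 at day 8, and without it neither stayed called (adjusted p up to 0.441). The median of the neuron list was 0.87. Cdh2, the cadherin of neural epithelium and mesoderm, had 2717 and 1388 at day 8, against 442 and 496 at day 4 (2.04 ± 0.49, adjusted p = 0.0298).

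Of 16 general pluripotency genes 2 rose and 0 fell (limma), with a median difference of 0.19, and of 18 naive genes 4 rose and 0 fell, with a median of 0.77, where 1.95% of all tested genes rose and 0.853% fell. At an unadjusted p of 0.05, 6 general genes were higher and 1 lower, and 12 naive genes were higher and 0 lower. Of all 15712 tested genes, 1362 were higher and 1089 lower at that p. Pou5f1 had 20101 and 21356 normalised counts at day 0, 10339 and 9482 at day 4 and 11925 and 11979 at day 8. Its day 8 minus day 4 difference was 0.27 ± 0.25 (adjusted p = 0.684, limma), and the day 8 libraries lay above those of day 4 and below those of day 0. Nanog had 10228 and 10418 at day 0, 6245 and 7624 at day 4 and 7736 and 6328 at day 8, and the last 2 days overlapped (0.02 ± 0.17, adjusted p = 0.998).

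Sox2, the partner of Pou5f1 that also marks neural progenitors, had 9161 and 8031 at day 8, against 6282 and 6526 at day 4, and was called higher (0.42 ± 0.10, adjusted p = 0.0322, limma). Dnmt3l, a cofactor of the de novo DNA methyltransferases, had 1363 and 1689 at day 8, against 719 and 661 at day 4 (1.13 ± 0.24, adjusted p = 0.0172). Dnmt3l lost its call whichever of the 4 libraries was left out, with adjusted p up to 0.119, and Sox2 kept it only without day 8 replicate 2, with adjusted p up to 0.37. The 4 naive genes were Klf5, Klf2, Jam2 and Nr0b1. Klf5 had 829.8 and 569 at day 8, against 412 and 335 at day 4, a difference of 0.88 ± 0.18 (adjusted p = 0.0126). Klf2 had 2431 and 1969, against 1277 and 1072, and Nr0b1, a nuclear receptor cofactor, had 969 and 715, against 299.99 and 367. At day 0 Klf5 had stood at 2413 and 2470.0, Klf2 at 3628 and 3123 and Nr0b1 at 2602 and 3039, above both later days.

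Other naive genes had day 8 values above day 4 without passing the test. Esrrb had 7722 and 5960.4 at day 8, against 4127 and 4153 at day 4 (0.71 ± 0.23, adjusted p = 0.121, limma). Zfp42 (Rex1) had 3482 and 2749, against 2277 and 1919.9 (adjusted p = 0.403), and Klf4 had 687 and 326, against 259 and 347, with overlapping days. In 17 of the 18 naive genes day 8 replicate 1 was above replicate 2. The naive list had 0 called members without day 8 replicate 1, while without day 8 replicate 2 it had 6, without day 4 replicate 1 it had 1 and without day 4 replicate 2 it had 0. Its median stayed between 0.561 and 1.06 over those fits.

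**Figure D2:**
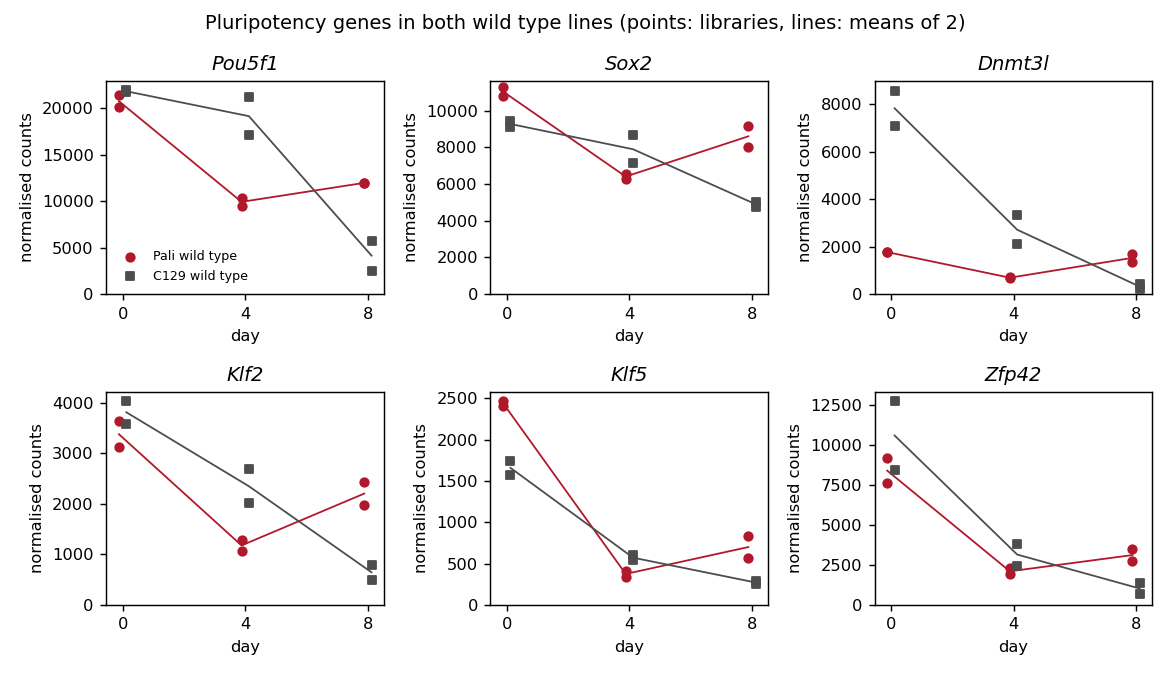
Normalised counts of 6 pluripotency genes at day 0, day 4 and day 8 in Pali wild type (red) and C129 wild type (grey); points are libraries and lines join the means of 2. In Pali wild type Pou5f1 stands at 11925 and 11979 at day 8, above its day 4 libraries, and in C129 wild type at 5742 and 2525, below them.

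Genes of the epiblast-like state showed a mixed picture. Of 18 primed and formative epiblast genes 2 rose (Etv5 and Cdh2) and 0 fell, where 1.95% of all tested genes rose. The median of the list was 0.06. Fgf5, the classic marker of primed epiblast, had 4.52 and 5.51 at day 0, 2752 and 3140.4 at day 4 and 537 and 1346 at day 8. Its last step was -1.78 ± 0.51 and did not pass the test (adjusted p = 0.0717, limma). The days did not overlap for Fgf5, which held for 43.2% of all tested genes. Otx2 had 1581 and 2830.2 at day 8, against 1981 and 2082 at day 4, and the days overlapped. Etv5, an ETS factor downstream of FGF, had 13589 and 13635, against 9794 and 10088 (0.45 ± 0.09, adjusted p = 0.00888). Without day 8 replicate 2, 4 members of the list were called lower, and without day 8 replicate 1 none was called.

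Both wild type lines were set side by side, with no library in common. C129 wild type showed 0 of 16 general and 0 of 18 naive pluripotency genes called higher at day 8, and 14 and 12 called lower, where 14.6% of all tested genes were, with medians of -1.62 and -1.17. The step of Pali wild type minus that of C129 wild type was called higher for 14 of the 16 and 12 of the 18, where 9.03% of all tested genes were, and lower for 0 of either list. Pou5f1 in C129 wild type had 5742 and 2525 at day 8, against 21141 and 17101 at day 4, and its steps differed by 2.59 ± 0.36 (Pali minus C129, adjusted p = 0.000124, limma). For Dnmt3l C129 wild type had 410.3 and 217 at day 8, against 3320.1 and 2099 at day 4, a difference between steps of 4.26 ± 0.35 (adjusted p = 1.32e-06). Lefty2, a Nodal antagonist and target that is high in stem cells, went opposite ways: 7588 and 5505 at day 8, against 1312 and 2501 at day 4, in Pali wild type, and 1576 and 721, against 7685 and 5607, in C129 wild type (difference 4.45 ± 0.50, adjusted p = 2.47e-05).

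Neural genes rose in both lines. Of the 32 neuroectoderm genes 11 rose and 0 fell in Pali wild type, with a median of 1.25, and 22 rose and 0 fell in C129 wild type, with a median of 2.33, where 16.2% of all tested genes rose. For 8 of the 32 the Pali step was called smaller, where 8.36% of all tested genes were, and for 0 larger. The 8 included Sox1, at 3328 and 3062 at day 8, against 172 and 317 at day 4, in C129 wild type (difference -3.63 ± 1.04, adjusted p = 0.022, limma), and the midbrain and dorsal genes En1, Wnt1 and Pax3. En1, a marker of the midbrain and hindbrain boundary, had 36.1 and 32.2 at day 8, against 19.9 and 36.2 at day 4, in Pali wild type, and 849 and 426, against 12.3 and 12.6, in C129 wild type.

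Over all genes, 189 were called in the same direction in both lines, 42.9% of the Pali wild type calls and 3.91% of the C129 wild type calls. In opposite directions 102 were called, 23.1% and 2.11% of the calls. Of the 307 genes that rose in Pali wild type, 152 (49.5%) rose, 63 (20.5%) fell and 92 were not called in C129 wild type. Of the 134 that fell, 37 (27.6%) fell, 39 (29.1%) rose and 58 were not called. In C129 wild type 16.2% of all tested genes rose and 14.6% fell. Among genes not called in Pali wild type, 15.4% rose and 14.4% fell there. The steps of 2732 genes (17.4%) were called different.

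**Figure D3:**
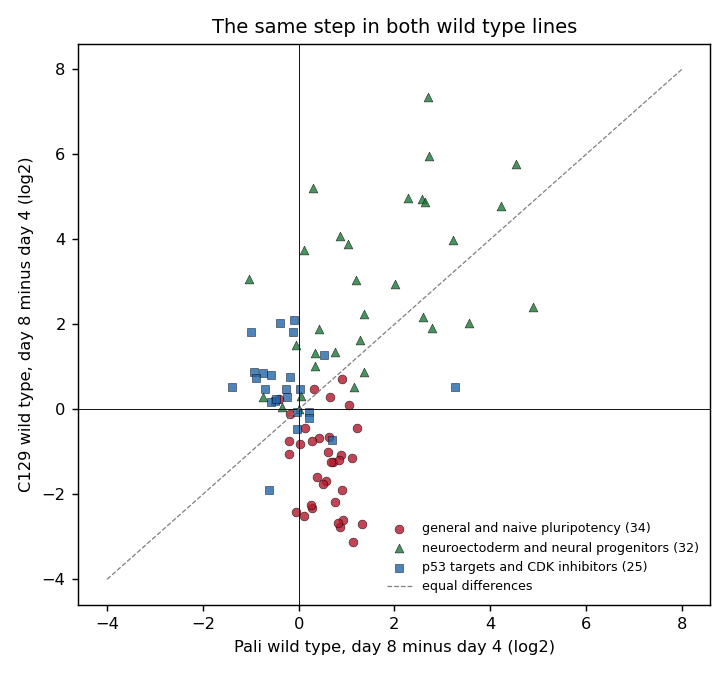
Log2 difference, day 8 minus day 4, in Pali wild type (horizontal) and C129 wild type (vertical) for members of 3 gene lists; the dashed line marks equal differences. Most pluripotency genes (red) lie right of 0 and below 0, with medians of 0.19 and 0.77 in Pali wild type and -1.62 and -1.17 in C129 wild type for the general and naive lists; neural genes (green) lie mostly above 0 in both.

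Several pathways of embryo patterning had members that rose, and among their tested members 1 fell, the Notch ligand Jag2. Of 33 genes of the BMP, Nodal and TGF-beta pathways 7 rose, where 1.95% of all tested genes did. The 7 were the ligand Bmp5, the antagonists Nog (noggin) and Lefty2, the inhibitory Smad7, and the BMP targets Id2, Id3 and Id4. Bmp5 had 62.2 and 45.6 at day 8, against 4.53 and 5.49 at day 4 (2.67 ± 0.37, adjusted p = 0.00142, limma), and it stayed called without any 1 of the 4 libraries. Nog had 79.3 and 36.7, against 2.72 and 3.29. Lefty2 is given above, and Nodal itself had 1378 and 1517 at day 8, against 814 and 1205 at day 4, and was not called (adjusted p = 0.295). Of Id2, Id3 and Id4, Id2 had 592 and 444, against 116 and 177 (adjusted p = 0.0138). The list had 1 called member without day 8 replicate 1, and without day 4 replicate 1 it had 2.

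Of 36 Wnt pathway genes 4 rose and 0 fell, where 1.95% of all tested genes rose and 0.853% fell. The 4 were Rspo3 and Rspo2, secreted amplifiers, the ligand Wnt6, and the secreted antagonist Frzb. Frzb had 315 and 288 at day 8, against 21.8 and 36.2 at day 4 (3.25 ± 0.64, adjusted p = 0.00976, limma), with even duplicates. Rspo2 was listed at 0 in both day 4 libraries and had 225 and 17.8 at day 8, and Wnt6 was listed at 0 there too and had 18.1 and 26.7 at day 8. Without day 8 replicate 1, 1 Wnt pathway gene was called. Of 20 Notch pathway genes 2 rose, the ligands Jag1, with 843 and 676 at day 8, against 394 and 485 at day 4, and Dll1, with 286 and 181, against 34.4 and 72.5. At day 0 Jag1 had 855 and 984 and Dll1 had 19.7 and 57.7. Jag2 had 0 and 60.0 at day 8, against 177 and 121 at day 4. None of these 3 Notch calls held without day 8 replicate 1.

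Where 1.95% of all tested genes rose, 3 of 26 genes of FGF signalling and its feedback did, and 0 fell. They were Etv5, given above, the feedback inhibitor Spry1, with 2201 and 1939 at day 8, against 1042 and 1175 at day 4 (0.90 ± 0.20, adjusted p = 0.019, limma), and the patterning ligand Fgf8, with 56.1 and 24.7, against 4.78 and 4.24. None of the 3 stayed called without day 8 replicate 1 (adjusted p up to 0.366). In C129 wild type Fgf8 had 86.1 and 62.1 at day 8, against 123 and 101 at day 4, and the steps differed by 2.87 ± 0.78 (adjusted p = 0.0165).

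Some targets of p53, the stress-activated transcription factor that drives cell cycle arrest and cell death genes, were lower at day 8. Of 25 tested p53 targets and cyclin-dependent kinase inhibitors 7 fell and 0 rose, where 0.853% of all tested genes fell, and the median difference was -0.27. Eda2r, a death-domain receptor, had 744 and 817 at day 8, against 1239 and 1311 at day 4, a difference of -0.71 ± 0.11 (adjusted p = 0.00177, limma), and it stayed called without any 1 of the 4 libraries. Trp53inp1, a nuclear partner of p53, had 5496 and 6431, against 8284 and 9519 (-0.58 ± 0.11, adjusted p = 0.00974). Phlda3, an inhibitor of Akt, had 405 and 679, against 871 and 1165. The days did not overlap for any of the 3, as for 100% of called genes and 43.2% of all tested genes.

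The other 4 that fell were Ccng1, Btg2, Mdm2 and Perp, of which Mdm2 is the ligase that degrades p53 itself. Ccng1, cyclin G1, had 4866 and 5499 at day 8, against 7409 and 10013 at day 4 (adjusted p = 0.0248, limma). Mdm2 had 2037 and 2129, against 2693 and 3234, a difference of -0.50 ± 0.12 (adjusted p = 0.0274). Btg2, an antiproliferative gene, had 747 and 973, against 1456 and 2009. In C129 wild type 10 of the 25 rose and 2 fell, where 16.2% of all tested genes rose and 14.6% fell. The median of the list there was 0.49. For 12 of the 25 the Pali step was called lower than the C129 step, where 8.36% of all tested genes were. Btg2 had 2474 and 2991 at day 8, against 643 and 902 at day 4, in C129 wild type (difference between steps -2.83 ± 0.33, adjusted p = 2.77e-05). The p53 list had 1 member called lower without day 8 replicate 1, 6 without day 8 replicate 2, 7 without day 4 replicate 1 and 1 without day 4 replicate 2.

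The promoters of the list were searched for the p53 decamer consensus, 10 bases, on both strands, in RefSeq windows of 250 bases before to 50 after each start (GRCm38.p6). Of all 32851 windows 8.36% held a match. A gene was counted if any of its windows held one, so gene counts and this share of windows are unlike measures. Of the 5 fallen members with an entry 2 held one, and of the 13 members with an entry that were not called 6 did, among them Cdkn1a, Bax and Sesn1. The matches of the 2 fallen genes are shown in capitals, in windows of 100 bases that lie before the start but not next to it. The windows are chr11:40755417-40755516 for Ccng1 and chr10:117710890-117710989 for Mdm2, both on the minus strand and read 5′ to 3′.
Ccng1: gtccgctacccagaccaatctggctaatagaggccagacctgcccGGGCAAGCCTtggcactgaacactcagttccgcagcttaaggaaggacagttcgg
Mdm2: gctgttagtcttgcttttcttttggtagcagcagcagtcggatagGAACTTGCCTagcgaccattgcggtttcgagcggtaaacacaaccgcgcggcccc
The first base of the match lies 185 bases before the start in Ccng1 and 186 bases before it in Mdm2. A match describes these letters and is not a measured binding site.

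Of 36 genes of glycolysis and the hypoxia response 2 rose and 0 fell, where 1.95% of all tested genes rose. The median of the list was 0.40. Egln3, an oxygen-sensing prolyl hydroxylase that is itself a hypoxia target, had 806 and 852 at day 8, against 317 and 247 at day 4 (1.55 ± 0.30, adjusted p = 0.00888, limma). Bnip3, a mitophagy receptor, had 2932 and 2855, against 1333 and 964 (1.35 ± 0.34, adjusted p = 0.0393, limma). At day 0 Egln3 had 432 and 653 and Bnip3 had 2319 and 2542. Of the enzymes, Pgk1 had 22070.0 and 26908 at day 8, against 14535 and 13134 at day 4, and did not pass (adjusted p = 0.0542). The glucose transporter Slc2a1 had 13332 and 18120.0, against 26321 and 26839, the other way (adjusted p = 0.119). Neither Egln3 nor Bnip3 stayed called without day 8 replicate 1, with adjusted p up to 0.264.

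The core letters of the hypoxia response element, ACGTG or its reverse CACGT, were searched in the same windows and were in 19.6% of all of them. Both called genes and 20 of the 30 other list members with an entry held them in at least 1 window. Some genes have several windows, so these gene counts and the share of windows are unlike measures. The 2 called genes are shown in windows of 100 bases that lie before the start but not next to it, with the letters in capitals. The windows are chr12:54204025-54204124 for Egln3 and chr7:138909562-138909661 for Bnip3, both on the minus strand.
Egln3: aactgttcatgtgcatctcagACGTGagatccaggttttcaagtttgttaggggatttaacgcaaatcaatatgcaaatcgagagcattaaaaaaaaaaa
Bnip3: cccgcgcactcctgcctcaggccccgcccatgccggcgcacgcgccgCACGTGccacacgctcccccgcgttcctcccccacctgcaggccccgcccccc
In Bnip3 the match reads the same on both strands, and its 2 overlapping matches are 1 stretch of letters; in Egln3 the first base lies 229 bases before the start.

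Imprinted genes, which are expressed from 1 parental copy, were called in both directions. Of 34 tested 4 rose (Igf2, Plagl1, Nnat and Dlk1) and 5 fell (Rian, Rtl1, Phlda2, Mirg and Meg3), with a median of 0.06. Over all tested genes 1.95% rose and 0.853% fell. Igf2, the fetal growth factor (chromosome 7, 142650766 to 142666816, minus strand), had 1883 and 3069.5 at day 8, against 291 and 352 at day 4, a difference of 2.89 ± 0.37 (adjusted p = 0.00102, limma). It stayed called without any 1 of the 4 libraries. H19, the non-coding RNA beside Igf2, had 568 and 647, against 130.5 and 199, and missed the threshold (adjusted p = 0.0539). Plagl1, a zinc finger growth regulator, had 1005 and 328, against 59.8 and 54.9, with a gap between its day 8 duplicates.

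The genes that fell were mostly from the Dlk1 and Meg3 locus on chromosome 12, whose maternal copy makes a row of non-coding RNAs. Rian had 4681 and 5907 at day 8, against 10600.0 and 10294 at day 4 (-0.99 ± 0.21, adjusted p = 0.0144, limma). Meg3 had 1569.6 and 1498, against 2834 and 2337, and Mirg had 199.7 and 270.0, against 465 and 469. Rtl1 had 335 and 361, against 748 and 759.6; it overlaps an antisense RNA that cannot be separated from it if strand was not used in counting. Dlk1, a protein-coding gene of the paternal copy, was listed at 0 in both day 4 libraries and had 21.3 and 23.8 at day 8. Phlda2, which lies in another imprinted cluster, was listed at 0 in both day 8 libraries and had 29.0 and 12.1 at day 4. The imprinted list without day 8 replicate 1 had 1 member called higher and 0 called lower.

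Among the falls were Tnnc1 and Myl3, of muscle, and Cyr61 and Ctgf, of the YAP response. The muscle list as a whole was mixed. Of its 21 tested genes 5 were higher and 4 lower at an unadjusted p of 0.05 (limma). Of all 15712 tested genes, 1362 and 1089 were. Fgfbp1, a carrier that releases FGF from the matrix, had 14.5 and 26.4 at day 8, against 221 and 224 at day 4 (-3.26 ± 0.85, adjusted p = 0.0463, limma). It was the largest fall among called genes that averaged 50 or more at day 4 and had no value of 0. Tnnc1, troponin C of slow and cardiac muscle, had 7.02 and 13.3, against 44.4 and 79.0, and Myl3, a myosin light chain of the same tissues, had 16.1 and 23.3, against 63.4 and 84.5. Cyr61 and Ctgf, matricellular genes used as readouts of YAP, were lower at day 8. Cyr61 had 824 and 1181 at day 8, against 2733 and 3702 at day 4, and Ctgf had 996 and 1540.1, against 3054 and 3553. Fgfbp1, Myl3 and Cyr61 lost the call whichever of the 4 libraries was left out. In C129 wild type Tnnc1, Myl3 and Cyr61 went the other way, and for Tnnc1 the steps differed by -5.59 ± 0.70 (adjusted p = 5.28e-05).

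Of the rest of the 12 falls, Prrg4, a transmembrane protein, had 420.4 and 759 at day 8, against 1706 and 1544 at day 4 (-1.52 ± 0.19, adjusted p = 0.00102, limma). The guidance cues Sema3e and Sema3c had 502 and 790.1 and 366 and 362 at day 8, against 1680.3 and 1886 and 951 and 1119.7 at day 4. Pgr, the progesterone receptor, had 41.1 and 93.3, against 214 and 183, and Alox5, a lipoxygenase of leukotriene synthesis, had 17.1 and 21.1, against 56.2 and 68.1. The last 3 of the 12 were the kinase gene Mapk4, Rhbdl3 and Ptchd1, with differences of -1.54, -1.58 and -1.43. Of the 12 only Prrg4 stayed called without day 8 replicate 1 (adjusted p of the others up to 0.466), 9 stayed called without day 8 replicate 2, 5 without day 4 replicate 1 and 1 without day 4 replicate 2.

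T (brachyury), the streak factor, was listed at 0 in both day 4 libraries and had 0 and 5.56 at day 8, and Eomes had 410.0 and 365 at day 8, against 187 and 180.1 at day 4, and was not called (adjusted p = 0.288, limma). Of 24 streak and early mesoderm genes 2 rose, Fgf8 and Hand1, and of 21 heart and muscle genes 1 rose, Isl1, and 2 fell, Tnnc1 and Myl3, where 1.95% of all tested genes rose and 0.853% fell. Isl1, a factor of heart progenitors and motor neurons, was listed at 0 in both day 4 libraries and had 12.04 and 28.9 at day 8. Of 20 blood and endothelial genes 0 were called (limma). At an unadjusted p of 0.05, 3 were higher and 0 lower, where 1362 and 1089 of all 15712 tested genes were. Kdr, the VEGF receptor of blood and endothelial progenitors, had 62.2 and 85.6 at day 8, against 42.6 and 11.0 at day 4.

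Some fibrillar and matrix genes were higher at day 8. Of 20 fibroblast and mesenchyme genes 3 rose (Col3a1, Col1a2 and Postn) and 2 fell (Ctgf and Cyr61). The shares over all tested genes were 1.95% and 0.853%. Col3a1 had 46.2 and 92.2 at day 8, against 0.906 and 3.29 at day 4 (3.54 ± 0.53, adjusted p = 0.00177, limma), and Col1a2 had 489.6 and 431, against 65.3 and 76.8. Of 30 basement membrane and matrix genes 4 rose (Fbn2, Vcan, Col4a6 and Nid1). Fbn2, a fibrillin of embryonic microfibrils, had 944 and 942 at day 8, against 173 and 156 at day 4, with the day 8 duplicates nearly equal (2.49 ± 0.38, adjusted p = 0.00245). Col3a1 and Fbn2 stayed called without any 1 of the 4 libraries. Without day 8 replicate 1 the 2 lists had 1 member each called higher.

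Many visceral endoderm genes were higher in replicate 2 than in replicate 1 on both days. Of 30 visceral and parietal endoderm genes 2 rose (Plat and Apoa2) and 1 fell (Lrp2), with a median of 0.60. Among all tested genes 1.95% rose and 0.853% fell. Of the 30, 24 were higher in replicate 2 than in replicate 1 at day 8, 25 at day 4, and 21 on both days. In 12 genes replicate 2 was over 4-fold above replicate 1 on both days (as value + 4), among them Afp, Apob, Cubn, Ttr, Apoa1, Rbp4 and Dab2. Afp had 8.03 and 1947 at day 8, against 7.25 and 92.2 at day 4, and Apob had 124 and 6648, against 84.3 and 1775. Cubn, an endocytic receptor of the same tissue, had 50.2 and 2930.3, against 41.7 and 2228. The summed level of the list was 37191 and 64379 at day 8, against 58748 and 62773 at day 4, and none of its members was at 0 in all 4 libraries. At day 8 replicate 1 had the lower endoderm sum and the higher neural sum, and at day 4 replicate 1 had the lower of both. Its part in the called differences was not tested beyond leaving out each library.

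The median of the endoderm list changed sign with the library left out: it was 1.63 without day 8 replicate 1, -0.44 without day 8 replicate 2, -0.18 without day 4 replicate 1 and 1.40 without day 4 replicate 2. Lrp2, the endocytic partner receptor of Cubn, did not follow the other products. It had 7807 and 14113 at day 8, against 30302 and 25990.0 at day 4 (-1.42 ± 0.20, adjusted p = 0.00142, limma), and stayed called without any 1 of the 4 libraries; in C129 wild type it had 18280.0 and 16227, against 8032 and 8118. Plat, a plasminogen activator, had 232 and 167 at day 8, against 52.6 and 56.0 at day 4, and Apoa2 had 225 and 235, against 114 and 93.8. At day 0 Plat had 13.2 and 19.2, and Apoa2 had 467 and 445, above both later days. Sox17 and Gata6, factors of endoderm, had 6.95 and 45.4 and 15.1 and 26.7 at day 8, against 0 and 23.9 and 0 and 26.3 at day 4, with overlapping days. Of 15 definitive endoderm genes 1 rose, where 1.95% of all tested genes did. It was Krt7, with 144 and 158 at day 8, against 28.1 and 36.2 at day 4.

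**Figure D4:**
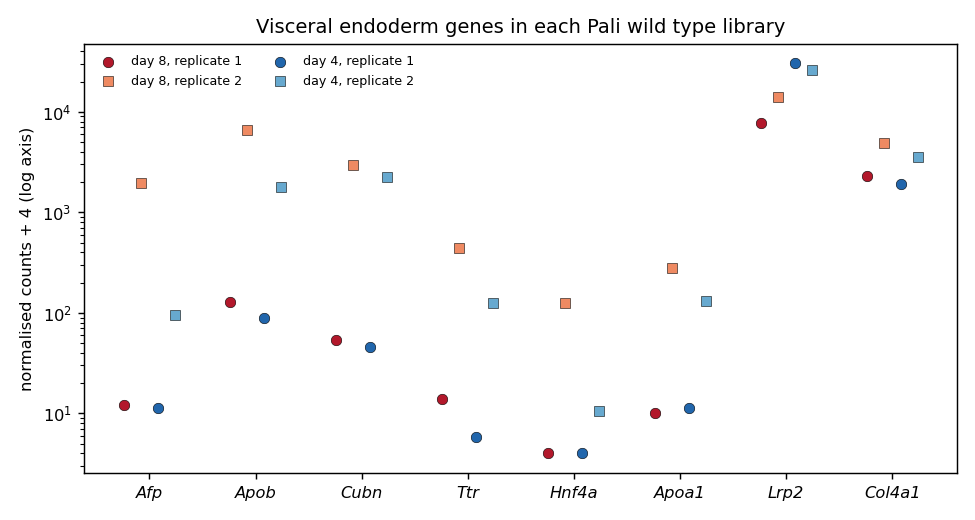
Normalised counts + 4 (log axis) of 8 visceral endoderm genes in each Pali wild type library; red and orange are day 8, blue is day 4, circles are replicate 1 and squares replicate 2. Squares lie above circles on both days for Afp, Apob, Cubn, Ttr, Hnf4a, Apoa1 and Col4a1; Lrp2 is lower at day 8.

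Replicate 1 of day 8 lay farther from day 4 than replicate 2 did in most called genes. Among the 307 that rose, day 8 replicate 1 was above replicate 2 in 252 (82.1%), in 70 of them over 2-fold, and among the 134 that fell it was above in 16 (11.9%) and below in 113. Among the genes that were not called it was above in 48%. Without day 8 replicate 1, 51 genes were called higher and 16 lower; without day 8 replicate 2, 356 were called higher and 205 lower. Without day 4 replicate 1 the counts were 158 and 58, and without day 4 replicate 2 they were 120 and 43.

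**Figure D5:**
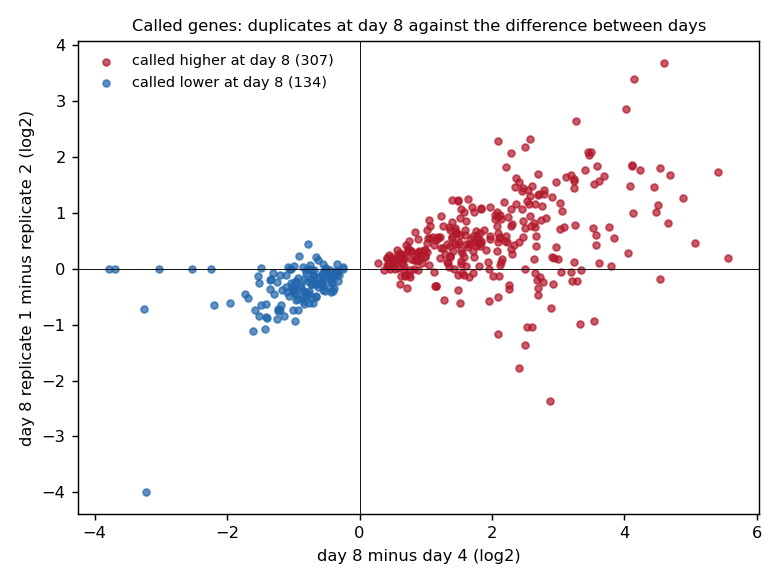
Called genes by their log2 difference between the days (horizontal) and by the log2 difference of the day 8 duplicates, replicate 1 minus replicate 2 (vertical). Of the 307 risen genes (red) 252 lie above 0, and of the 134 fallen genes (blue) 113 lie below it.

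Of 14 tested Hox genes 0 were called (limma). At an unadjusted p of 0.05, 2 were higher and 0 lower, where 1362 and 1089 of all 15712 tested genes were. Hoxb1 had 17.1 and 22.2 at day 8, against 16.3 and 15.4 at day 4. Of 36 Polycomb subunit genes 1 was called, near the 2.81% of all tested genes. It was Pcgf3, a subunit of a variant repressive complex, with 1334 and 1476 at day 8, against 1935 and 1730.0 at day 4 (-0.38 ± 0.08, adjusted p = 0.0191, limma), and it lost the call without day 8 replicate 1 and without day 4 replicate 1. Lcor had 116 and 87.8 at day 8, against 128.70 and 60.4 at day 4, and Lcorl had 634 and 713, against 718 and 641, and neither was called. Aebp2, another partner of the complex, had 1385 and 1469, against 2258 and 2255, and was not called either (-0.66 ± 0.33, adjusted p = 0.347). Ezh2 and Phf19 were listed at 0 in all 4 libraries, and an exact 0 in this table can be a failed estimate.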

How the data were processed

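RNA depleted of ribosomal RNA was sequenced, per the labels' protocols, from 5 lines at 3 days, 2 libraries per group. The authors deposited 1 table of normalised counts, a signal with decimals. With no role stated, the mm10 build, DESeq2, HISAT2 2.0.5 and kallisto 0.43.1 stand in the submitters' processing notes. Between 82.7 and 85.8% of low values (under 8 steps) in the 4 libraries were whole multiples of 1 step within 0.001, so whole reads were not recovered and no count model was run. Exact values of 0 can be failed estimates, so no fold is given against a group at 0; 33 called genes were at 0 in both libraries of 1 day.

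Libraries were grouped by title. A linear model with 1 mean for each of 15 groups was fitted to log2(value + 4) of all 30 libraries with limma 3.58.1 (R 4.3.3; trend, robust, 15 residual degrees of freedom), for genes with at least 10 in at least 2 libraries. P-values were adjusted by Benjamini-Hochberg over all genes tested, threshold 0.05. The step of C129 wild type was compared by the interaction contrast. On simulated data of this comparison over 15712 genes, the fit recovered 57 of 100 genes with a 2-fold change and 87 of 100 with a 4-fold change, and 4 of its calls (2.7%) were false.

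The comparison and its 32 gene lists were chosen with earlier results of these data known. Named genes include the 12 largest rises and falls among called genes. These averaged 50 or more on the day with the higher mean, with no overlap and no 0. Up to 3 called members per list and direction were added, with 21 fixed genes (Nkx2-5 was filtered out). Also named were 4 genes per direction at 0 on 1 day, and the 8 largest called differences from C129 wild type in each direction. Other list members given were picked after their values were seen. Some genes that meet these rules are not reported here. Symbols ending in Rik and similar models were passed over. Coordinates are from GENCODE M21 (GRCm38) and promoters from RefSeq. Of 20563 symbols 20361 were current and 177 were synonyms. Alternatives changed the pseudocount, filter, scaling, libraries, moderation, replicate block and discordant genes.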

Additional observations from a re-analysis of the deposited data

Results flagged for a closer look

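For 42 named genes with no group at 0 in both libraries, the day 8 minus day 4 step of Pali wild type differed from that of C129 wild type by limma's interaction test; values are the Pali minus the C129 step (log2, adjusted p under 0.05 over all tested genes, 17.4% of which passed). Among pluripotency genes and their partners the difference was 4.26 for Dnmt3l, 2.79 for Klf2, 2.59 for Pou5f1, 2.26 for Zfp42, 1.96 for Esrrb, 1.95 for Klf5, 1.67 for Jam2, 1.10 for Sox2 and 0.84 for Nanog. Among genes of Nodal, FGF and Notch signalling it was 4.45 for Lefty2, 2.87 for Fgf8, 2.01 for Etv5, 1.01 for Spry1 and -1.32 for Jag1. The germline genes Sohlh2 and Tex19.1 had 2.57 and 2.06, and the hypoxia, sterol and lipoprotein genes Egln3, Ebp and Apoa2 had 2.18, 1.14 and 1.15.

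Lower steps in Pali wild type were measured for the muscle and matricellular genes Tnnc1 (-5.59), Cyr61 (-4.37), Myl3 (-3.34) and Ctgf (-1.42), and for the p53 targets Phlda3 (-1.82), Eda2r (-1.19) and Trp53inp1 (-0.75). The same holds for Alox5 (-3.65), Sox1 (-3.63), Msx2 (-2.81), Sema3c (-2.79), Lrp2 (-2.51), Igf2 (-2.25), Bmp5 (-2.01), Rhbdl3 (-1.71) and Pcgf3 (-0.61).

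The 7 others were named for the size of the difference, which was 8.48 for Cep250, 7.32 for Abcb1a, 6.95 for Ntrk2, 6.11 for Gbp4, 5.61 for Nbea, -7.86 for Srebf1 and -8.45 for Fgfr3. Cep250 had 494 and 77.6 at day 8, against 17.2 and 86.8 at day 4, in Pali wild type, and 0.945 and 0, against 498 and 235, in C129 wild type. Srebf1 had 31.1 and 1.11, against 105 and 386, in Pali wild type, and 4.72 and 541, against 1.23 and 0, in C129 wild type. The duplicates of both genes lie far apart on both days in Pali wild type. The others have like limits. At day 8 in C129 wild type Abcb1a had 30.2 and 0 and Nbea had 0 and 22.7. In Pali wild type Gbp4 had 0 and 32.8 at day 4 and Fgfr3 had 0 and 14.8 at day 8. Ntrk2 had 262 and 23.0 at day 4 in C129 wild type.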

How the results depend on the processing

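With the pseudocount, filter, scaling, moderation or discordant-gene setting changed, the counts stayed within 1.5 times of 307 and 134: 225 to 324 genes were called higher and 113 to 160 lower. With the 12 wild type libraries alone 20 genes were called higher, 6 lower and 1514 different from C129 wild type, and with the 4 libraries alone, on 2 residual degrees of freedom, limma called 0 higher and 0 lower, while 1801 genes had an unadjusted p under 0.05. Leaving out 1 library gave 51 to 356 genes higher, 16 to 205 lower and 1631 to 2895 different from C129 wild type; the library left out of the lowest pair of counts was day 8 replicate 1, and the number different from C129 wild type was 1748 without C129 day 8 replicate 2 and 1631 without C129 day 4 replicate 1. A group left with 1 library is assumed to vary like the others. No named gene changed sign while called. No Hox gene averaged 50 or more, so that the median of the Hox list could not be given under that filter. Of 1813 results for the 116 named genes under the alternatives, 1478 kept their side of the threshold, 330 lost the call and 5 gained it; of 75 called named genes 58 lost the call without day 8 replicate 1, 16 without day 8 replicate 2, 38 without day 4 replicate 1 and 44 without day 4 replicate 2, and 15 kept it in all 4 fits. Over all genes the correlation of the day 8 and day 4 deviations of same-numbered libraries was 0.0546 in Pali wild type and -0.0311 to 0.0366 in the other lines. Many endoderm genes were higher in replicate 2 on both days. A correlation over all genes cannot show a pairing that is limited to some genes, and whether same-numbered samples were paired was not tested further. With a replicate block 342 genes were called higher, 138 lower and 2813 different from C129 wild type. Depth was not varied, and 2-fold changes were recovered less often than 4-fold ones in simulated data.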

Other observations

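Among groups not described above, 2 of 22 germline genes rose and 0 fell, where 1.95% of all tested genes rose. Sohlh2, a germ cell helix-loop-helix factor, had 229 and 176 at day 8, against 79.8 and 83.4 at day 4 (adjusted p = 0.0326, limma), and Tex19.1, a gene of germ cells and pluripotent cells, had 975 and 910.1, against 573 and 634. Of 17 trophoblast genes 2 rose, Hand1 and Krt7, and Hand1 had 12.04 and 78.9 at day 8, against 0 and 2.20 at day 4. Of 11 neural crest genes 1 rose, Msx2, with 52.2 and 82.2, against 17.2 and 24.1. Of 24 genes of cholesterol synthesis 1 rose, Ebp, with 735 and 671, against 454 and 489.6. Tex19.1, Krt7, Msx2 and Ebp lost the call whichever of the 4 libraries was left out, Sohlh2 in all but the fit without day 8 replicate 2, and Hand1 without day 8 replicate 2 and without day 4 replicate 1.

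Counts of 0 called genes, where limma called 2.81% of all tested genes, were found for 7 further lists. They are 32 subunits of oxidative phosphorylation (3 higher and 1 lower at an unadjusted p under 0.05), 19 enzymes of serine and glycine metabolism (3 and 1), 24 genes of G2 and mitosis (0 and 0), 24 of DNA replication (1 and 4), 35 cytoplasmic ribosomal proteins (0 and 1), 24 of stress and heat shock (1 and 4) and 16 genes of the 2-cell-like state (0 and 0). Of all 15712 tested genes, 1362 were higher and 1089 lower at an unadjusted p under 0.05. The medians of the 7 lists lay between -0.16 for stress genes and 0.05 for serine and glycine enzymes. In C129 wild type 22 of the 35 ribosomal protein genes and 10 of the 16 genes of the 2-cell-like state fell over the same days, where 14.6% of all tested genes did.

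Some genes were listed at 0 in both libraries of 1 day and at high values in the other, and none of the following was called by limma. Trip12 had 253 and 241 at day 8, Zbtb43 had 121 and 399, E2f7 had 215 and 319 and Epb41 had 316 and 0, each with 0 and 0 at day 4. Arhgef5 had 486 and 553 at day 4, Prdm1 had 74.3 and 259, Nipal3 had 284 and 28.5 and Fam107b had 26.3 and 254, each with 0 and 0 at day 8. Tmsb4x, an abundant actin-binding peptide, was listed at 0 and 0 at day 4 in C129 wild type and had 778 and 1106 there at day 8, while Pali wild type had 546 and 340.0 at day 8, against 342 and 481 at day 4. Of 52 named genes whose step was called different from C129 wild type, 10 had such a group at 0 and are given no difference: Arhgef5, Chst15, Fbn1, Gprc5a, Lzts3, Ppp1r3b, Slco5a1, Tmsb4x, Ttf1 and Wnt6.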
